A study of Mus musculus with 10 samples.

Results

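The genes described here are the muscle atrophy ligases, the FoxO transcription factors and a small group of lysosomal and autophagy genes that FoxO factors are known to drive. They are *Fbxo32*, *Trim63*, *Fbxo30* and *Fbxo31* (ubiquitin ligases), *Foxo1*, *Foxo3* and *Foxo4*, and *Ctsl*, *Bnip3* and *Gabarapl1*. They were chosen by symbol, 10 genes of 19505 with a symbol on the array, and each was measured by 1 probe set. RNA came from whole gastrocnemius (GTN) muscle of male C57BL/6N mice aged 60 days on standard chow, hybridised to Clariom S mouse arrays with 1 mouse per array. The 5 ctrl mice were Txnrd2 fl/fl without Cre, and the 5 knockout mice (mTKO) were Txnrd2 fl/fl with 1 ACTA1-Cre allele, so both genotypes carried the floxed alleles of the gene for mitochondrial thioredoxin reductase. ACTA1-Cre is active in myofibers but not in satellite cells, and other cells of the muscle keep the gene. Because the controls had no Cre, Cre expression and the loss of *Txnrd2* cannot be told apart in these arrays.

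When muscle wastes, myofibers degrade their proteins by 2 routes. In the ubiquitin-proteasome route, E3 ligases tag contractile and regulatory proteins for the proteasome. In the autophagy-lysosome route, membranes enclose cytoplasm and mitochondria and deliver them to lysosomal proteases. FoxO factors control genes of both routes. Growth signals through Akt phosphorylate the FoxO proteins and keep them out of the nucleus, so that their activity is set largely at the protein level and a transcript level does not report it.

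The targeted gene was checked first. The *Txnrd2* signal lay between 8.47 and 9.08 in the ctrl arrays and between 7.51 and 7.96 in the mTKO arrays, on the log2 scale used for every signal here. The genotypes did not overlap (difference mTKO minus ctrl -0.998, SE 0.16, limma adjusted p = 0.118). Array medians ran from 6.06 to 6.14 and every pair of arrays correlated at 0.986 to 0.990. Markers of myofibers, the tissue named by the labels, were among the highest signals of the array, with all 10 measured. Their mean was 18.98 to 19.01 in ctrl and 18.93 to 18.97 in mTKO, so that the genotypes were apart by a very small amount. Of the 10 markers 2 had a positive and 8 a negative difference, from -0.23 to 0.05 with a median of -0.01. At an unadjusted limma p under 0.05, 0 passed.

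Across the 10 genes, *Ctsl* was the single gene that stood apart between the genotypes, and none passed the adjusted threshold. *Ctsl*, the gene for the lysosomal cysteine protease cathepsin L, was 1.67-fold higher in mTKO. The ligases *Fbxo32* (atrogin-1) and *Trim63* (MuRF1), the genes most used as markers of muscle atrophy, were 0.99-fold and 0.94-fold of ctrl. *Fbxo30* (MUSA1) was 1.26-fold of ctrl, with overlapping arrays. *Foxo1* was 0.82-fold, *Foxo3* 1.13-fold and *Foxo4* 1.08-fold of ctrl. In limma's moderated test over all 22206 probe sets with Benjamini-Hochberg adjustment, 0 of the 10 genes had an adjusted p under 0.05, beside 0.0045% of all probe sets. At an unadjusted p under 0.05, 1 of 10 was higher (*Ctsl*) and 0 were lower, beside 3.1% and 3.26% of all probe sets (6.36% in either direction). *Ctsl* was also the 1 gene of the 10 whose mTKO arrays all lay above the ctrl arrays, beside 0.495% of all probe sets (0.527% lay fully below and 1.02% were apart in either direction). By the methods' t-test at an unadjusted p under 0.05 with a fold change above 2, 0 of the 10 passed, beside 0.0585% of all probe sets. The median log2 difference of the 10 genes was 0.12 and that of all 19505 genes was 0. Of the 10 differences 6 were positive and 4 negative, while 49.9% of all genes had a positive difference. The median absolute log2 difference was 0.13 for the 10 genes and 0.14 for all genes.

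**Figure D1:**
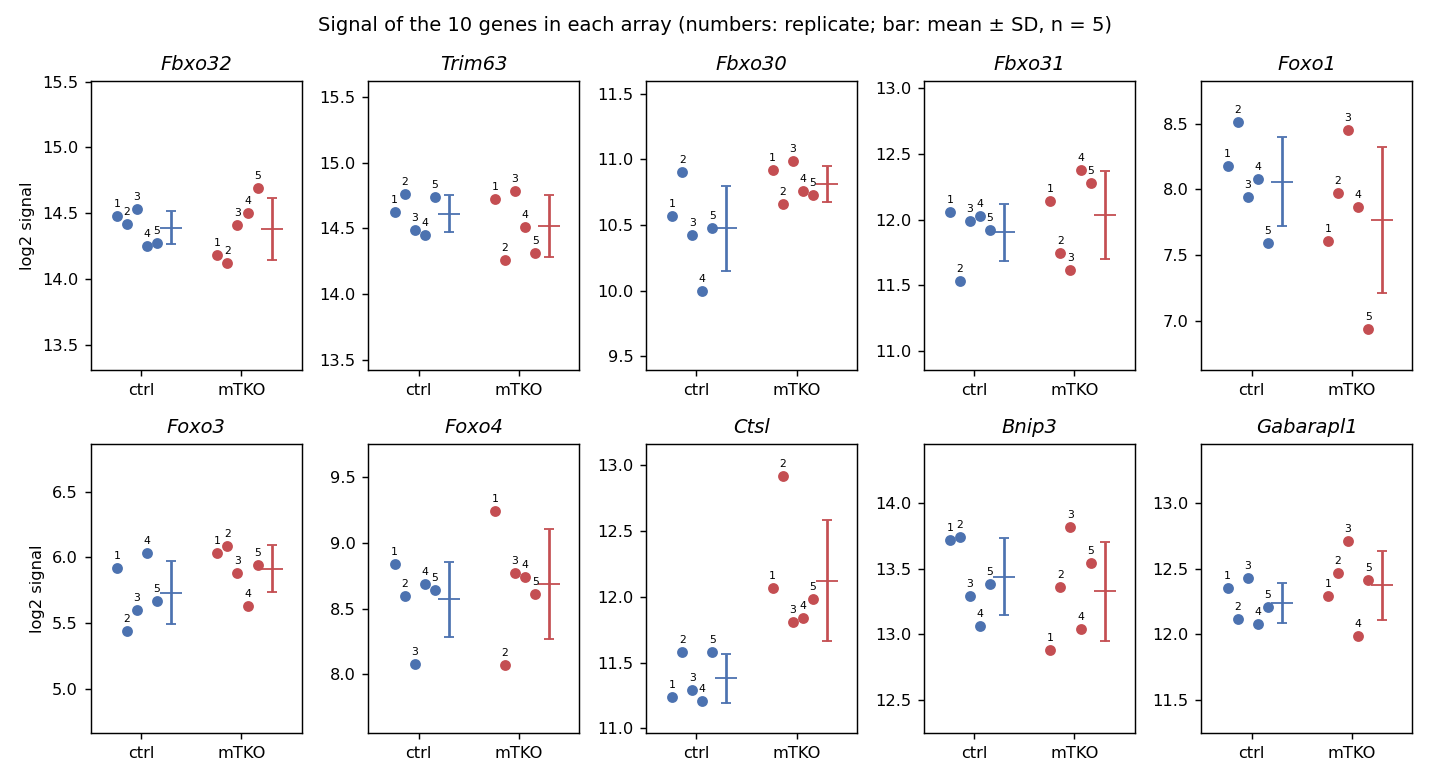
Log2 signal of each of the 10 genes in each array, with ctrl in blue and mTKO in red, the replicate number above each point, and the mean ± SD (n = 5) beside the points. In *Ctsl* all 5 mTKO arrays (11.81 to 12.92) lie above all 5 ctrl arrays (11.21 to 11.58), and in the other 9 genes the genotypes overlap. Each panel has its own range, since levels of different probe sets cannot be compared.

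Promoter sequence is shown for the genes in which known binding letters were found. RefSeq windows on GRCm38.p6 were at hand for 8 of the 10 genes. *Fbxo32* and *Foxo4* are named only. The 250 bases before each start were searched on both strands for the FoxO core GTAAACA and the glucocorticoid receptor half-site AGAACA. They were also searched for the E-box CACGTG, which TFEB and clock factors bind. In the first sequence the capitals mark a half-site, read on the opposite strand as TGTTCT at -200 to -195, followed directly by the FoxO core, read as TGTTTAC at -194 to -188. In the other sequences the capitals mark the E-box, at -236 to -231 in *Ctsl* and at -108 to -103 in *Bnip3*. The pieces lie at chr4:134314870-134315119 on the plus strand, chr13:64370739-64370768 on the minus strand and chr7:138909597-138909626 on the minus strand, each written 5′ to 3′ along its gene.
Trim63: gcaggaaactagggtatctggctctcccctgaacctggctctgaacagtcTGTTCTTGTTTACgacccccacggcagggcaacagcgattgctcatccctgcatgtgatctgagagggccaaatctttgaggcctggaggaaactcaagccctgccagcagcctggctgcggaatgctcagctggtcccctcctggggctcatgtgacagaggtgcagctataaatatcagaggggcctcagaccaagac
Ctsl: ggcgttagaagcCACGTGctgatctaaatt
Bnip3: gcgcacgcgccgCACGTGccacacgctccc
The *Trim63* and *Bnip3* pieces end upstream of the gene, while the *Ctsl* piece lies inside the annotated gene, whose span runs from 64361890 to 64370772. The FoxO core was found in 1 of the 8 windows and in 3.17% of all 32851 windows of the same length. The E-box was found in 2 of 8 and in 6.02% of all windows, and the half-site in 1 of 8 and in 16.1%. A match describes the letters of a window and does not show that a factor binds there.

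The ubiquitin ligases come first, as the enzymes that choose which proteins are degraded. *Fbxo32* (chromosome 15, 58175879 to 58214892) encodes atrogin-1, the F-box subunit of an SCF ligase that acts on regulators of growth and differentiation. Its log2 signal was 14.48, 14.42, 14.53, 14.25 and 14.27 in ctrl replicates 1 to 5, and 14.18, 14.12, 14.41, 14.50 and 14.69 in mTKO replicates 1 to 5. The mTKO arrays spanned the whole ctrl range, with replicates 1 and 2 below every ctrl array and replicate 5 above every one. The difference was -0.01 (SE 0.15, 95% interval -0.34 to 0.32, limma adjusted p = 0.995), an interval that corresponds to 0.79-fold to 1.25-fold.

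*Trim63*, whose promoter opens the sequences above, encodes MuRF1, a RING ligase that acts on myosin and other sarcomere proteins. Its signal was 14.62, 14.76, 14.49, 14.45 and 14.74 in ctrl, and 14.72, 14.26, 14.78, 14.51 and 14.31 in mTKO. Replicates 2 and 5 of mTKO lay below every ctrl array and the other 3 within or just above the ctrl range. The difference was -0.10 (SE 0.16, 95% interval -0.43 to 0.24, limma adjusted p = 0.958). The upper bounds of the intervals of these classical ligases were 1.25-fold for *Fbxo32* and 1.18-fold for *Trim63*.

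*Fbxo30* (chromosome 10, 11281330 to 11305750) encodes MUSA1, an F-box protein of a ligase that is induced in denervated muscle and restrained by BMP signalling. Its signal was 10.57, 10.90, 10.42, 10.00 and 10.48 in ctrl, and 10.92, 10.66, 10.99, 10.76 and 10.73 in mTKO. All 5 mTKO arrays were above the ctrl mean of 10.47 ± 0.32 (SD, n = 5), but ctrl replicate 2 lay above 3 of them. The difference was 0.34 (SE 0.17, 95% interval -0.03 to 0.70, limma adjusted p = 0.812), and the two-sided exact permutation p was 0.0476. The exact test had no adjustment over probe sets. Without ctrl replicate 2 the genotypes no longer overlapped and the difference was 0.44, past an unadjusted limma p of 0.05 (limma adjusted p = 0.732). Without ctrl replicate 4, the lowest array, it was 0.22 (limma adjusted p = 0.937).

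*Fbxo31* (chromosome 8) encodes an F-box protein whose ligase acts on cyclin D1 and which belongs to the FoxO-dependent ligases of muscle. Its signal was 12.06, 11.53, 11.99, 12.03 and 11.92 in ctrl, and 12.14, 11.75, 11.62, 12.38 and 12.28 in mTKO. Ctrl replicate 2 lay well below the other ctrl arrays, while in mTKO replicates 2 and 3 were low and the other 3 were above every ctrl array. The difference was 0.13 (SE 0.18, limma adjusted p = 0.945) and 0.03 without ctrl replicate 2.

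The FoxO factors, which act upstream of these ligases, all had overlapping genotypes. *Foxo1* (chromosome 3, 52268337 to 52350109) had a signal of 8.18, 8.51, 7.94, 8.08 and 7.59 in ctrl, and 7.61, 7.97, 8.45, 7.87 and 6.94 in mTKO. Replicate 5 was the lowest array in each genotype, though the labels do not say whether equal numbers mark related mice. The arrays overlapped over most of their range. The difference was -0.29 (SE 0.24, 95% interval -0.81 to 0.23, limma adjusted p = 0.885), and -0.09 without mTKO replicate 5. The spread of *Foxo1* within genotype was an SD of 0.46, larger than in 89.9% of all genes, so its interval was the widest of the 10.

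*Foxo3* (chromosome 10, 42181845 to 42276695) encodes a FoxO factor whose activation alone makes myofibers shrink in mice. Its signal was 5.92, 5.44, 5.60, 6.03 and 5.67 in ctrl, and 6.03, 6.09, 5.88, 5.63 and 5.94 in mTKO. The genotypes overlapped, and all of these values lay below the median of 6.1 over all probe sets, where a probe set is less certain to report its transcript. The difference was 0.18 (SE 0.16, limma adjusted p = 0.890). *Foxo4*, on the X chromosome, had a signal of 8.84, 8.60, 8.08, 8.69 and 8.64 in ctrl, and 9.24, 8.07, 8.77, 8.74 and 8.61 in mTKO. Its arrays overlapped almost fully, with mTKO replicate 1 high and mTKO replicate 2 and ctrl replicate 3 low. The difference was 0.12 (SE 0.21, limma adjusted p = 0.967), and it was -0.02 without mTKO replicate 1.

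**Figure D2:**
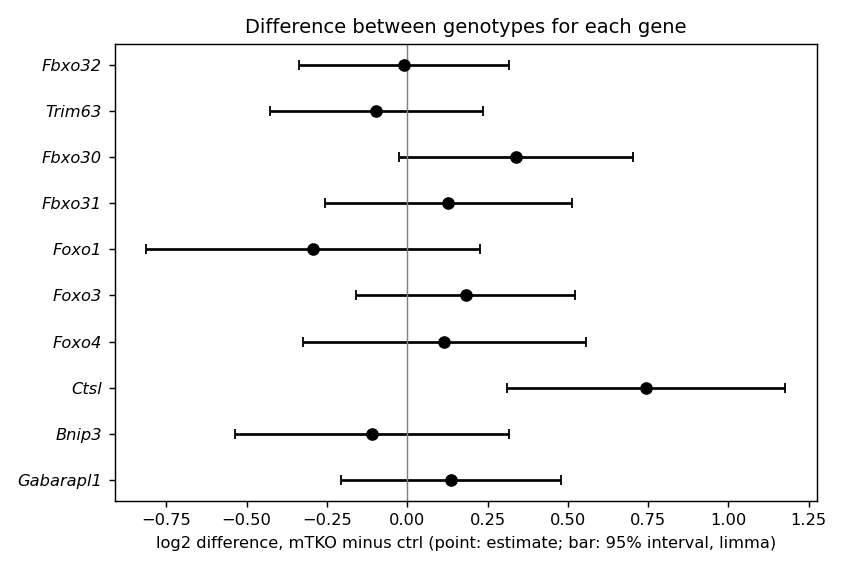
Log2 difference (mTKO minus ctrl, x axis) of each of the 10 genes, with the estimate as a point and limma's 95% interval as a bar (n = 5 per genotype). The interval of *Ctsl* (0.31 to 1.18) lies above 0, and those of all the other genes span it, among them *Fbxo30* (-0.03 to 0.70).

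Among the lysosomal and autophagy genes, *Ctsl* (chromosome 13) had a signal of 11.24, 11.58, 11.29, 11.21 and 11.58 in ctrl, and 12.07, 12.92, 11.81, 11.84 and 11.98 in mTKO. The lowest mTKO array, replicate 3, was above the highest ctrl arrays, replicates 2 and 5, and mTKO replicate 2 lay far above the other 4. The difference was 0.74 (SE 0.20, 95% interval 0.31 to 1.18, limma adjusted p = 0.623), and *Ctsl* ranked 81 of all 22206 probe sets by p. The two-sided exact permutation p was 0.00794, the smallest that 5 against 5 arrays allow. Without mTKO replicate 2 the difference was 0.55 (limma adjusted p = 0.692). Leaving out an array cannot make genotypes overlap that are apart with all arrays.

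Cathepsin L is made by myofibers and by other cells of the muscle, macrophages among them. In a whole-muscle array, fewer cells of a type and less RNA per cell cannot be told apart. Of 12 listed macrophage markers 11 were measured, 5 of them with positive and 6 with negative differences (median -0.08). Their mean signal was 6.65 to 7.16 in ctrl and 6.61 to 7.29 in mTKO, with the highest value in mTKO replicate 2, and 5 of the 11 were below the array median. *Mrc1*, the mannose receptor of resident macrophages, was higher by 0.44 and *Adgre1*, which encodes F4/80, had a difference of -0.54 (limma adjusted p = 0.783 and 0.763). Of the satellite cell markers 6 of 6 were measured, 5 of them with positive and 1 with a negative difference (median 0.16). Their mean was 6.58 to 6.80 in ctrl and 6.79 to 6.96 in mTKO, and 4 of the 6 were below the array median. *Pax7*, the transcription factor gene that marks satellite cells, was 0.47 higher (limma adjusted p = 0.759), with 4 of the 5 mTKO arrays above every ctrl array. Of the adipocyte markers 5 of 5 were measured, and all 5 had negative differences (median -0.46). Their mean was 4.91 to 7.34 in ctrl and 4.35 to 6.92 in mTKO, and 3 of the 5 were below the array median. *Lep*, the leptin gene, had a difference of -0.46 (limma adjusted p = 0.768), with 3 of the 5 mTKO arrays below every ctrl array. The part of other cell types in the *Ctsl* difference was not tested.

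*Bnip3* (chromosome 7) encodes a receptor on the outer mitochondrial membrane that recruits the autophagy machinery. Its signal was 13.72, 13.74, 13.29, 13.06 and 13.38 in ctrl, and 12.88, 13.36, 13.82, 13.04 and 13.54 in mTKO. The arrays of each genotype covered nearly the same range, and mTKO replicate 1 was the lowest of the 10. The difference was -0.11 (SE 0.20, limma adjusted p = 0.967), and it was 0.002 without mTKO replicate 1.

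*Gabarapl1* (chromosome 6, 129533192 to 129542331) encodes an Atg8-family protein that is anchored in autophagosome membranes and binds cargo receptors. Its signal was 12.35, 12.12, 12.43, 12.08 and 12.21 in ctrl, and 12.29, 12.47, 12.71, 11.99 and 12.41 in mTKO. The genotypes overlapped, with mTKO replicate 3 the highest and mTKO replicate 4 the lowest of the 10 arrays. The difference was 0.14 (SE 0.16, 95% interval -0.21 to 0.48, limma adjusted p = 0.928).

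**Figure D3:**
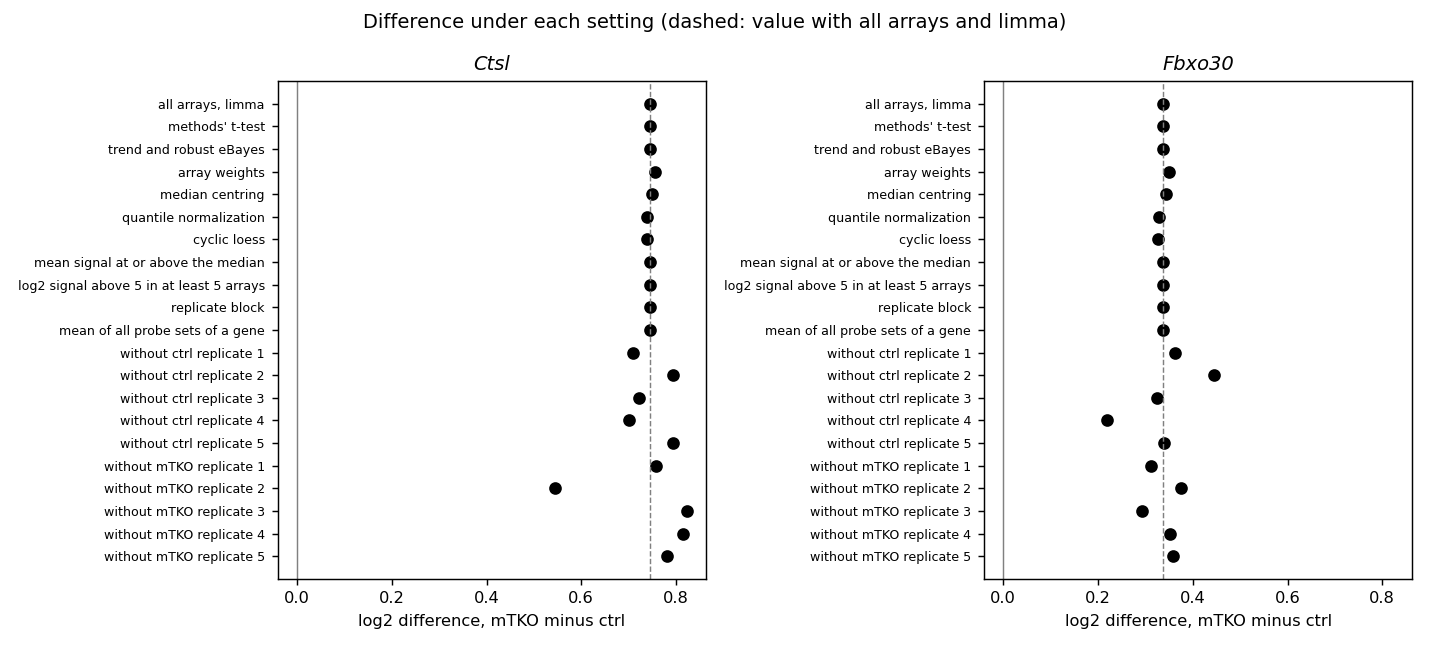
Log2 difference (mTKO minus ctrl, x axis) of *Ctsl* and *Fbxo30* under each test, normalization, filter and left-out array (y axis), with the value from all arrays dashed. *Ctsl* stays between 0.55 and 0.82 and *Fbxo30* between 0.22 and 0.44, and the lowest values come without mTKO replicate 2 and without ctrl replicate 4.

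The wider pathways were then read from lists of related genes, 144 measured of 158 listed. None of these genes had a limma adjusted p under 0.05, so what follows gives values at an unadjusted threshold. Of 18 other muscle ubiquitin ligases, among them *Fbxo40*, *Trim55* and *Traf6*, 8 had a positive and 10 a negative difference. Their differences ran from -0.26 to 0.25 with a median of -0.01, and 0 passed an unadjusted limma p under 0.05 in either direction.

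Of 22 other genes known as FoxO targets or atrophy genes, 11 had a positive and 11 a negative difference (median 0.01), and 2 were higher and 1 lower at an unadjusted p under 0.05. *Cdkn1a*, the gene for the cell cycle inhibitor p21, had a signal of 9.25, 9.51, 9.54, 10.42 and 9.50 in ctrl, and 10.65, 10.94, 10.16, 10.43 and 10.20 in mTKO. Ctrl replicate 4 lay within the mTKO range, while the other 4 ctrl arrays were below every mTKO array. The difference was 0.83 (SE 0.22, limma adjusted p = 0.588), and without ctrl replicate 4 it was 1.03.

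*Cdkn1b*, which encodes the related inhibitor p27, lay between 9.73 and 10.27 in ctrl (median 9.85) and between 10.24 and 10.46 in mTKO (median 10.39). Only ctrl replicate 2 reached into the mTKO range. The difference was 0.40 (SE 0.15, limma adjusted p = 0.765). *Nfil3*, a gene for a bZIP repressor, had a difference of -0.48 (SE 0.20, limma adjusted p = 0.783), with 4 of the 5 mTKO arrays below every ctrl array and mTKO replicate 2 inside the ctrl range.

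Of 30 measured proteasome subunits 22 had a positive and 8 a negative difference, with a median of 0.10 beside 0 for all genes. Subunits are expressed together, so that the count does not stand for 30 independent genes. At an unadjusted p under 0.05, 2 were higher, *Psmc1*, an ATPase of the regulatory particle (0.33, SE 0.15), and *Psma1*, an alpha subunit of the core (0.32, SE 0.15), each with a limma adjusted p of 0.783. *Psmc1* ran from 12.18 to 12.61 in ctrl and from 12.49 to 12.86 in mTKO. *Psma1* ran from 12.85 to 13.35 in ctrl and from 13.35 to 13.57 in mTKO.

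The 19 other cathepsins and lysosomal genes all had smaller differences than *Ctsl*. Their differences ran from -0.35 (*Ctso*) to 0.25 (*Ctsz*), 10 positive and 9 negative, with a median of 0.02, and 0 passed an unadjusted limma p under 0.05. *Ctsb*, the gene for cathepsin B, had a difference of 0.18 (95% interval -0.17 to 0.52), and *Lamp1*, a lysosomal membrane protein gene, one of 0.10 (-0.19 to 0.39). The upper bounds of *Ctsb*, *Lamp1* and *Lamp2* (0.36) were below the *Ctsl* estimate of 0.74, but the intervals of all 3 overlapped the *Ctsl* interval. *Tfeb*, which encodes a factor that drives lysosomal genes, had a difference of -0.12 (-0.52 to 0.28). Whether TFEB acts on the E-box printed above was not tested.

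Of 24 other autophagy and mitophagy genes 14 had a positive and 10 a negative difference (median 0.02). *Sqstm1*, the gene for the cargo receptor p62, was 14.21, 14.27, 14.07, 14.09 and 13.87 in ctrl, and 14.44, 14.67, 14.11, 14.65 and 14.32 in mTKO. All mTKO arrays but replicate 3 were above every ctrl array. The difference was 0.34 (SE 0.16, limma adjusted p = 0.783). *Bnip3l*, the close relative of *Bnip3*, had a difference of 0.08, and the Atg8-family genes *Map1lc3a*, *Map1lc3b*, *Gabarapl2* and *Gabarap* had differences of 0.23, 0.09, 0.25 and -0.01.

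Of 25 genes that signal to FoxO 13 had a positive and 12 a negative difference (median 0.01), and 1 was lower at an unadjusted p under 0.05. This was *Mstn*, which encodes myostatin, the secreted inhibitor of muscle growth. Its signal was 13.64, 13.05, 12.58, 12.81 and 12.92 in ctrl, and 12.59, 12.20, 12.52, 12.17 and 12.46 in mTKO. The other 4 mTKO arrays were below every ctrl array, and mTKO replicate 1 lay just above ctrl replicate 3. The difference was -0.61 (SE 0.19, limma adjusted p = 0.677), and it was -0.45 without ctrl replicate 1. Of 6 calpains and caspases measured, 3 were positive and 3 negative, from -0.26 to 0.23.

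**Figure D4:**
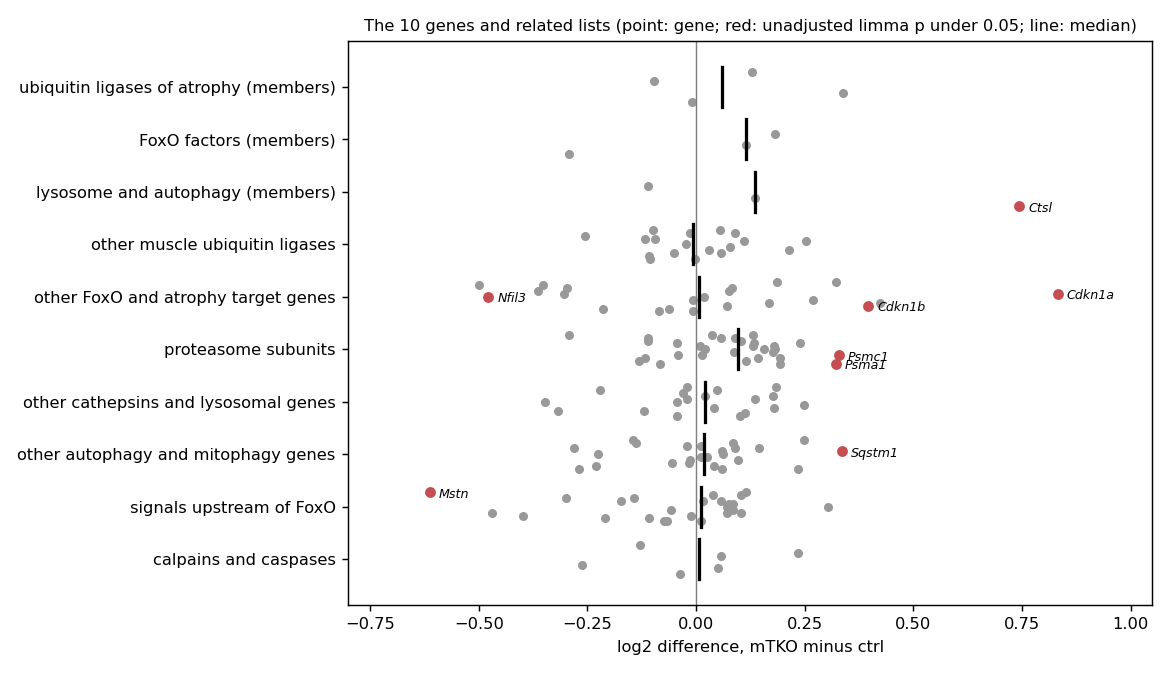
Log2 difference (mTKO minus ctrl, x axis) of each measured gene of each list (y axis), with the list's median as a vertical line and genes at an unadjusted limma p under 0.05 in red with their names. *Ctsl* (0.74) and *Cdkn1a* (0.83) lie farthest to the right and *Mstn* (-0.61) farthest to the left, and list medians lie between -0.01 and 0.14.

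Leaving out 1 array took some of these genes to the other side of an unadjusted limma p of 0.05. *Cdkn1b* missed it without ctrl replicate 4, with a difference of 0.34. *Nfil3* missed it in 5 of the 10 fits that left out 1 array, and *Psmc1*, *Psma1* and *Sqstm1* each missed it in 7 of 10. The differences of these genes closest to 0 were -0.39 for *Nfil3* (without mTKO replicate 1), 0.28 for *Psmc1* (without mTKO replicate 1), 0.25 for *Psma1* (without ctrl replicate 4) and 0.28 for *Sqstm1* (without ctrl replicate 5). *Ctsl*, *Cdkn1a* and *Mstn* stayed below it in all 20 settings.

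Mice of 1 genotype also differed among themselves, and the 10 genes were compared by how they varied together. Over the 45 pairs of genes, Pearson's r of signals centred within genotype (10 arrays, which share hybridisation and normalization) was positive in 25 and negative in 20, with a median of 0.04. *Fbxo32* and *Trim63*, often read together, had r = -0.12. The highest values were 0.71 for *Trim63* with *Fbxo30*, 0.65 for *Trim63* with *Foxo4* and 0.61 for *Bnip3* with *Gabarapl1*. *Foxo1* had r = 0.40 with *Trim63* and -0.67 with *Fbxo31*, the lowest of all pairs. *Ctsl* had r = -0.58 with *Fbxo32*. Of the 10 arrays, mTKO replicate 2 had both the highest *Ctsl* signal (12.92) and the lowest *Fbxo32* signal (14.12). This r was not recomputed without that array. All these r values describe 10 mice and carry no test.

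**Figure D5:**
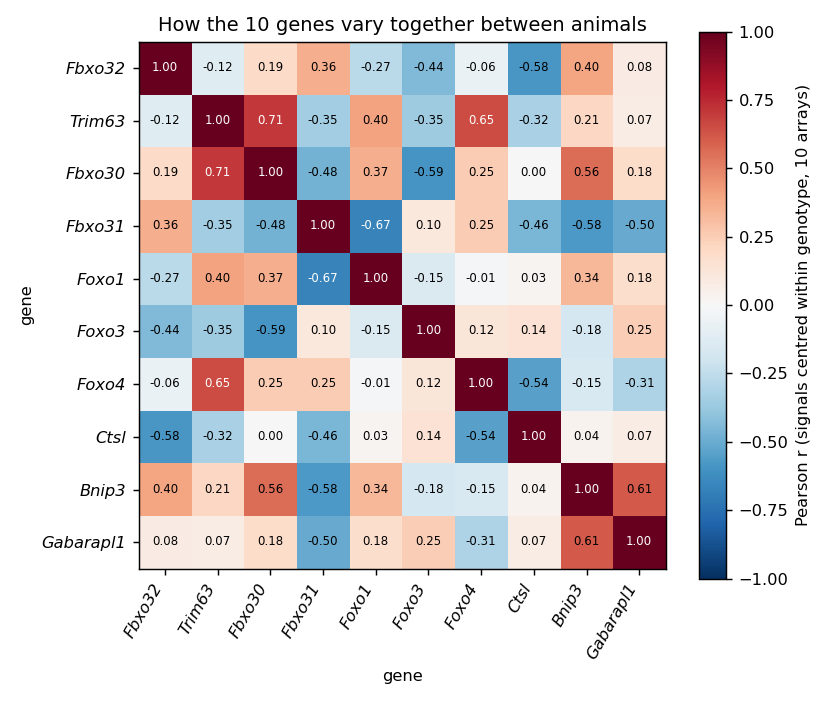
Pearson's r between each pair of the 10 genes (both axes), from log2 signals centred within genotype over 10 arrays, with red for positive and blue for negative values. The map shows few strong pairs, with *Trim63* and *Fbxo30* at 0.71 and *Fbxo31* and *Foxo1* at -0.67.

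The genes whose centred signal was most like that of *Ctsl*, among 10014 genes at or above the median signal, were *Eif3c*, a translation initiation factor gene (r = 0.92), *Psat1*, a serine synthesis gene (r = 0.92), and *Asns*, the asparagine synthetase gene (r = 0.91). This likeness rested on mTKO replicate 2, since r was 0.55, 0.51 and 0.39 over the other 9 arrays. For *Fbxo32* the closest genes were *Reps2* (r = 0.95), *Rab17* (r = 0.94) and *Zgrf1* (r = 0.93). For *Foxo1* they were *Ppme1* (r = 0.97), *Aqp11* (r = 0.96) and *Il4ra* (r = 0.94). These 6 stayed at or above 0.90 without mTKO replicate 2. They are the highest of 10014 values over 10 arrays and carry no test.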

How the data were processed

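The deposited values were log2 signals that the authors computed with SST-RMA (background correction, normalization between arrays and 1 value per probe set) in Affymetrix Expression Console 1.4, given to 2 decimals. The methods name an unpaired t-test. Detection calls and scanner files were not used here, so a dim probe set cannot be told from an absent transcript, and 5 arrays per genotype limit the precision. The genome build of the annotation was not given in the sources used here. Any pair of arrays shared at most 1.15% of values.

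All 22206 probe sets were fitted by genotype in limma 3.58.1 (R 4.3.3, lmFit and eBayes at defaults, Benjamini-Hochberg over all). Of these, 19572 had 1 symbol and 2634 had none. For a gene with several, the probe set with the highest mean was taken. Intervals are limma's 95% intervals, and exact permutation tests covered all assignments of 5 and 5 arrays, two-sided. The procedure was run on simulated data with independent noise in each probe set, so correlation between genes was not part of that check.

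The 10 genes and all lists were chosen with earlier results of these data known, so counts over them are descriptions. From each list, up to 4 genes with the smallest limma p under 0.05 unadjusted were named by rule. *Fbxo40*, *Trim55*, *Traf6*, *Ctso*, *Ctsz*, *Ctsb*, *Lamp1*, *Lamp2*, *Tfeb*, *Bnip3l* and the Atg8-family genes were added after their values were seen. Markers not reported with a comparison had these mean signals in ctrl and mTKO: endothelial 10.40 to 10.88 and 10.36 to 11.12, fibroblast 12.38 to 12.83 and 12.14 to 13.55, red blood cell 7.35 to 7.57 and 7.24 to 7.60, and neutrophil 4.33 to 4.86 and 4.44 to 5.10. The red blood cell mean rested on 2 of 5 listed markers, without *Hbb-bt*, *Hbb-bs* and *Hba-a1*. All 4 measured neutrophil markers were below the array median. Promoter windows were RefSeq's on GRCm38.p6. Alternatives covered the test, normalization, filters, the replicate number as a block, and each array left out.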

Additional observations from a re-analysis of the deposited data

Results flagged for a closer look

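In 2 of the 20 sets of 5 arrays examined (10 genes in 2 genotypes), 1 array lay far from the others, and chance alone does so in about 1 of 20. In the *Ctsl* signal of the mTKO arrays the gap between replicate 2 (12.92) and the next array (12.07) was 0.766 of the whole range, above the critical value of 0.71. Replicate 2 was not unusual over all probe sets, since it was the outlying array of its genotype in 1.04% of them, within the range of 0.973% to 1.56% over the arrays. This share cannot show a shift limited to a small set of genes. The likeness of *Ctsl* to *Eif3c*, *Psat1* and *Asns* rested on replicate 2. In the *Fbxo31* signal of the ctrl arrays the gap between replicate 2 (11.53) and the next array (11.92) was 0.736 of the range. Without that array the *Fbxo31* difference was 0.03 in place of 0.13, and it passed no threshold either way.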

How the results depend on the processing

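Each result was recomputed under 20 other settings. The count of the 10 genes at an adjusted p under 0.05 was 0 in every one. At an unadjusted p it was 1, except 2 with trend and robust eBayes (*Ctsl*, limma adjusted p = 0.244, and *Fbxo30*, 0.755), and 1 to 2 with an array left out. Complete separation was found in 1 to 2 genes with an array left out, 2 being without ctrl replicate 2. The median difference of the 10 genes ran from 0.070 to 0.165 with an array left out and from 0.11 to 0.13 otherwise. Over all probe sets, 1 passed the adjusted threshold, 9 did with trend and robust eBayes, 3 after a filter on mean signal at the median, 0 by the methods' t-test, 0 after quantile normalization, and 0 to 1 with an array left out. The *Ctsl* difference kept its sign and the genotypes stayed apart in every setting, but only a change of normalization could have altered either. Its limma adjusted p-values or those of the t-test ran from 0.244 to 0.905. Signs turned for *Fbxo32* with quantile normalization (0.0225) and, with an array left out, for *Fbxo32* (-0.0875 to 0.055), *Foxo4* (-0.0225 to 0.27) and *Bnip3* (-0.233 to 0.002), all near 0, and the cause was not tested. *Foxo3* had no value under the mean-signal filter.

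The labels do not say whether equal replicate numbers pair the mice. Deviations of same-numbered arrays correlated at -0.04 to 0.16, which cannot settle it, since differently numbered arrays were not compared. With the number as a replicate block the counts were the same, 0 at an adjusted and 1 at an unadjusted p, with *Ctsl* at a difference of 0.74 (limma adjusted p = 0.601). Signal over background is not known without detection calls.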
